A study of Mus musculus with 4 samples.

Results

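The 9 genes described here are the signal transducers Stat3, Stat4, Stat5a, Stat5b and Stat6 and the feedback inhibitors Socs1, Socs2, Socs3 and Cish. They were chosen by symbol, as the probes to which the platform annotation assigns exactly 1 of these genes, and were 9 of 22180 genes and 12 of 41345 probes measured. Socs2, Socs3 and Cish had 2 probes each and the other genes 1. RNA came from regulatory T cells sorted 7 days after mice had been immunized with NP-OVA, a hapten coupled to ovalbumin, in complete Freund's adjuvant (CFA). It was hybridized to Affymetrix Mouse Gene 2.0 ST arrays.

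There were 4 groups with 1 array each. KO TFR cells were PD1+CXCR5+YFP+ CD4 T cells (follicular regulatory T cells) of Prdm1fl/flFoxP3YFP-Cre mice, and WT TFR cells came from the same gate in FoxP3YFP-Cre mice. KO non-TFR cells were CXCR5-YFP+ CD4 T cells of Prdm1fl/flFoxP3YFP-Cre mice, and WT non-TFR cells came from the same gate in FoxP3YFP-Cre mice. The WT mice therefore carried the Foxp3-driven YFP and Cre as well, and Cre acts where Foxp3 is expressed. Prdm1 encodes the transcriptional repressor Blimp-1. How many mice stand behind each array, their age and their sex are not given in these sources. With 1 array per group no difference below has a replicate check, an error or a test, and precision is limited by the number of arrays.

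Cytokine receptors without enzymatic activity of their own signal through Janus kinases (JAKs), which phosphorylate STAT proteins. Phosphorylated STATs pair, enter the nucleus and bind DNA at interferon-gamma activated sequences (GAS elements). Among the genes they switch on are those of CIS and the SOCS proteins, which bind the receptor or the kinase and end the signal, so that the message level of these inhibitors is often read as a trace of recent cytokine signalling. In regulatory T cells IL-2 signals through STAT5 and sustains Foxp3, whereas STAT3 acts downstream of IL-6, IL-10, IL-21 and IL-23, STAT4 downstream of IL-12 and STAT6 downstream of IL-4. An array measures the STAT messages and not their phosphorylation.

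The upstream sequences of Cish and Socs3 are shown because these were the members whose start-site windows held a GAS element. Of the 9 genes, Cish also had the largest difference between KO and WT TFR cells, whereas Socs2 had the widest range over the arrays. The windows run from 250 bases before to 50 bases after each annotated start, are those of RefSeq on GRCm38.p6, and covered 8 of the 9 genes (all but Socs2) in 11 windows. Capitals mark matches to TTCNNNGAA, which reads the same on both strands. The Cish stretch is chr9:107296409-107296678 on the plus strand and ends 20 bases into the transcript. The Socs3 stretch is chr11:117969367-117969616 on the minus strand and ends at the base before the start.
Cish: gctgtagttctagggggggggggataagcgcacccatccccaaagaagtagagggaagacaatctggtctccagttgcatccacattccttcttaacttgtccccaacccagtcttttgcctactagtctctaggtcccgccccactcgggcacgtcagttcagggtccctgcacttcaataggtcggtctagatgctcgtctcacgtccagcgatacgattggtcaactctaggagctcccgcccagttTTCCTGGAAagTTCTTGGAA
Socs3: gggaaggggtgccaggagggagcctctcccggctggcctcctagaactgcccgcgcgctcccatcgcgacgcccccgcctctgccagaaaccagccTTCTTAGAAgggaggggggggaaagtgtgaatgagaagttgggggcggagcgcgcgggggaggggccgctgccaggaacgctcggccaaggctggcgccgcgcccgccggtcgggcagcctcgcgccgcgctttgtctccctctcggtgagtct
Cish had 2 matches, at bases 1 to 9 and 12 to 20 counted from the first base of the annotated transcript, and Socs3 had 1 match at bases -154 to -146. Of all 32851 such windows in the table, 8.30% held at least 1 match and 0.457% held 2 or more. No window of a member held the form with a spacer of 4 bases, TTCNNNNGAA, which was present in 6.95% of all windows. A match of letters is a description and shows no binding.

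Values are log2 signals after quantile normalization of the 4 arrays. Levels are compared between arrays for the same probe and never between probes. The brightest probe stands for a gene unless the second is named. A gene was counted as expressed above the median level of all genes (5.91), a limit that 11090 genes passed, all 9 among them. A difference was counted when it reached 0.5 on the log2 scale (1.41-fold), and separately when it reached 1 (2-fold). In these bulk samples, fewer cells that express a gene and less RNA per cell cannot be told apart.

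As a check of the labels, Prdm1 had levels of 7.32 in KO TFR, 8.21 in WT TFR, 7.59 in KO non-TFR and 7.80 in WT non-TFR cells. The genotype difference was -0.89 in TFR cells but only -0.21 in non-TFR cells, short of the 0.5 limit used here, so that the check says little of the genotype labels there. The part of the transcript that the probe covers, and whether it was deleted, is not known here. The gate gene Cxcr5 lay at 10.39 and 9.52 in KO and WT TFR cells and at 8.90 and 8.06 in KO and WT non-TFR cells. Pdcd1, the gene of PD1, lay at 10.68 and 9.86 in KO and WT TFR cells and at 8.96 and 7.44 in KO and WT non-TFR cells. The genotype difference of Pdcd1 was 0.82 in TFR cells and 1.52 in non-TFR cells, whose gate does not name PD1. Cxcr5 was also higher in KO cells, by 0.87 in TFR and 0.84 in non-TFR cells. Bcl6, another marker of TFR cells, was higher in KO by 1.12 and 0.25 in the same order. The bearing of these differences on the comparisons below was not tested. Foxp3 lay between 11.87 and 12.45 and Cd4 between 11.02 and 11.33 on all arrays. Of 7 B cell markers measured, the 5 genes Ms4a1, Cd79a, Pax5, Blnk and Fcrla had means below the expression limit, as did 7 of 8 myeloid markers and 4 of 6 CD8 T and NK cell markers. The log2 of the summed signal of the B cell list was 10.08 in KO TFR, 9.67 in WT TFR, 9.27 in KO non-TFR and 8.94 in WT non-TFR cells. Cd22 had the largest differences in it, with 9.27, 8.27, 7.04 and 5.99 in the same order. Gene by gene, 3 of the 7 markers were higher and 4 lower in KO than in WT TFR cells, with a median of -0.04. The summed signal of the myeloid list was 9.65, 8.85, 8.63 and 8.62 in the same order of arrays, with Cd68 the only myeloid marker above the limit. That of the CD8 T and NK list was 9.39, 9.45, 9.72 and 9.81. The part of such cells in the differences below was not tested. Cell cycle genes moved with the population: the mean level of the 11 measured was 9.41 in KO TFR, 9.34 in WT TFR, 7.26 in KO non-TFR and 6.24 in WT non-TFR cells.

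The comparison of KO TFR with WT TFR cells asks how the follicular regulatory population differs with the Prdm1 genotype. The inhibitor genes Cish and Socs2 were lower in KO TFR cells, while the STAT genes and Socs1 stayed within 0.5 of their WT level, as did Socs3 on both of its probes. Of the 9 genes, 2 were at least 0.5 lower and 0 at least 0.5 higher, against 2.43% of expressed genes lower and 3.43% higher. At the 2-fold limit, 1 of the 9 was lower, against 0.234% of expressed genes. The members went both ways: the median was 0.06 over the 5 STAT genes and -0.32 over the 4 inhibitor genes, 0.010 over all 9 and 0.020 over expressed genes.

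Cish encodes CIS, an SH2-domain protein that is induced by STAT5 and damps IL-2 receptor and T cell receptor signalling. Its brighter probe had levels of 10.27 in KO TFR, 11.33 in WT TFR, 11.32 in KO non-TFR and 11.29 in WT non-TFR cells. The KO TFR array thus stood alone below 3 arrays that lay close together. The difference between KO and WT TFR cells was -1.07 (2.10-fold lower), and Cish ranked 20 of 11090 expressed genes from the lowest in that comparison. The second Cish probe gave the same picture, with levels of 7.73 in KO TFR, 8.70 in WT TFR, 8.51 in KO non-TFR and 8.57 in WT non-TFR cells. Its difference between KO and WT TFR cells was -0.97 (1.95-fold lower). The cell cycle list, which separated the populations, differed between the KO and WT TFR arrays by a median of 0.08, with 0 of 11 genes at least 0.5 apart. Its part in the Cish values was not tested.

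Socs2 encodes a SOCS-box protein best known for restraining growth hormone receptor signalling, and is itself a target of STAT5. Its brighter probe had levels of 6.75 in KO TFR, 7.39 in WT TFR, 8.14 in KO non-TFR and 8.41 in WT non-TFR cells. Here the arrays were spread over 1.66, with both TFR arrays below both non-TFR arrays and KO below WT in each population. The difference between KO and WT TFR cells was -0.64 (1.56-fold lower), rank 139 of 11090 from the lowest. The second Socs2 probe had 6.06 in KO TFR, 6.70 in WT TFR, 6.55 in KO non-TFR and 6.59 in WT non-TFR cells. It gave the same genotype difference in TFR cells, -0.63, but placed WT TFR cells 0.10 above WT non-TFR cells, where the brighter probe placed them 1.02 below.

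**Figure D1:**
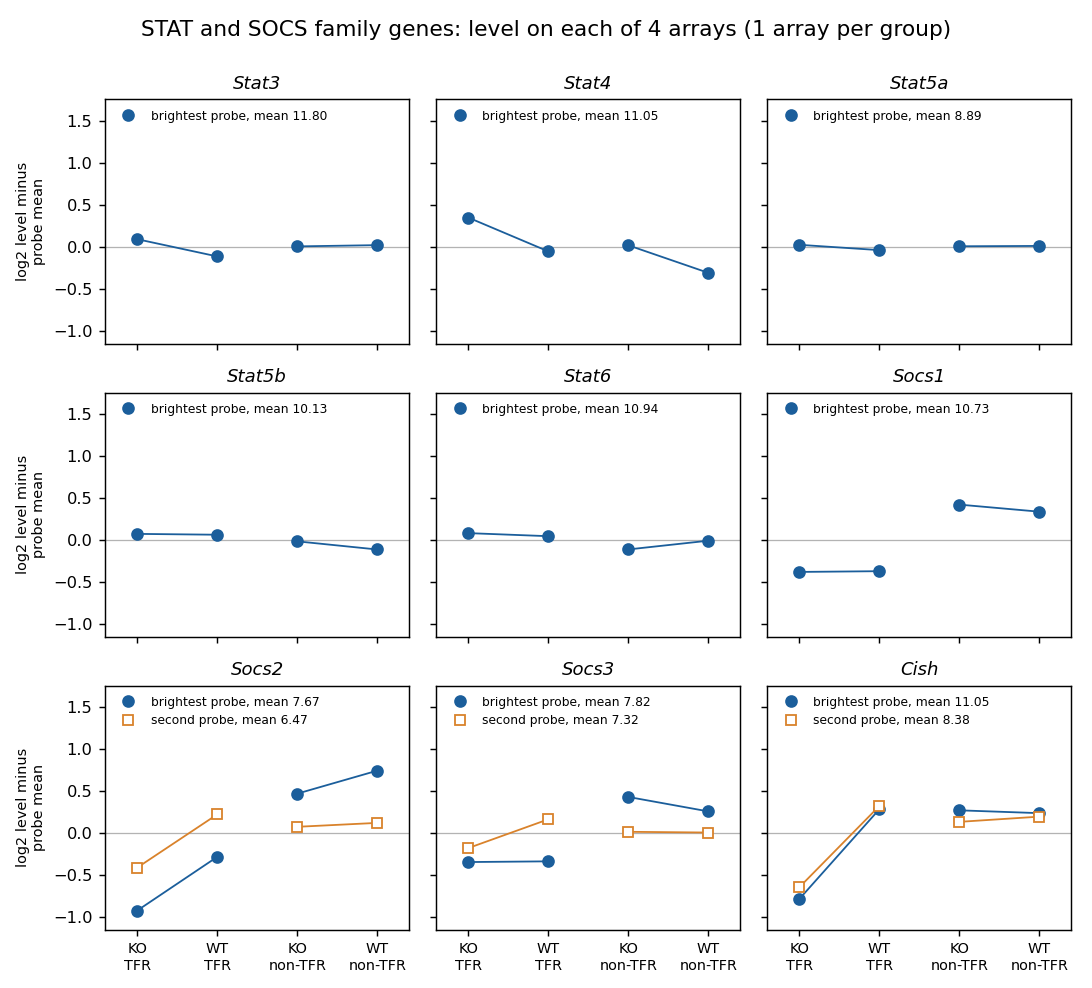
Level of each STAT and SOCS family gene on the 4 arrays (x axis), as the log2 level minus that probe's own mean over the arrays (y axis). Filled circles are the brightest probe, open squares the second probe, and lines join KO and WT of 1 population. Both Cish probes are low in KO TFR cells alone, Socs1 is lower in both TFR arrays than in both non-TFR arrays, and the probes of Socs2 and Socs3 differ in how they order the populations.

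Socs1, the inhibitor of JAK kinases that limits interferon and common gamma chain cytokine signals, had levels of 10.35 in KO TFR, 10.35 in WT TFR, 11.15 in KO non-TFR and 11.06 in WT non-TFR cells. Genotype made a difference of -0.0087 in TFR and 0.08 in non-TFR cells. Socs3, the inhibitor of gp130 receptors such as that of IL-6, had 7.47 in KO TFR, 7.48 in WT TFR, 8.24 in KO non-TFR and 8.07 in WT non-TFR cells on its brighter probe. Its second probe had 7.14 in KO TFR, 7.48 in WT TFR, 7.34 in KO non-TFR and 7.33 in WT non-TFR cells. The genotype difference in TFR cells was therefore -0.0084 on the first and -0.34 on the second probe, and neither reached 0.5.

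Among the transducers, Stat4 had the largest differences by genotype. Its levels were 11.40 in KO TFR, 11.00 in WT TFR, 11.07 in KO non-TFR and 10.74 in WT non-TFR cells. KO was above WT in both populations, by 0.40 (1.32-fold) in TFR and 0.33 (1.25-fold) in non-TFR cells, which placed it above 93.9% and 87.5% of expressed genes. These 2 comparisons use separate arrays. Neither value reached 0.5.

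Stat3, which many follicular and Th17 genes depend on, had levels of 11.89 in KO TFR, 11.68 in WT TFR, 11.80 in KO non-TFR and 11.82 in WT non-TFR cells. Its genotype difference was 0.20 in TFR and -0.015 in non-TFR cells. Stat6 had 11.02 in KO TFR, 10.98 in WT TFR, 10.82 in KO non-TFR and 10.93 in WT non-TFR cells, a range of 0.19 (0.26 as deposited).

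The IL-2 transducers STAT5A and STAT5B come from separate genes. Stat5a had 8.92 in KO TFR, 8.86 in WT TFR, 8.90 in KO non-TFR and 8.90 in WT non-TFR cells, a range of 0.06 over the 4 arrays (0.16 as deposited). Stat5b had 10.20 in KO TFR, 10.19 in WT TFR, 10.11 in KO non-TFR and 10.02 in WT non-TFR cells, a range of 0.19 (0.30 as deposited). The genotype difference in TFR cells was 0.06 for Stat5a and 0.0099 for Stat5b. The bearing of the STAT5 messages on Cish and Socs2, which were lowest in KO TFR cells, was not tested. Stat5a and Stat5b are closely related genes that lie side by side with Stat3 on chromosome 11, and the assignment of signal between these relatives on the array is uncertain.

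**Figure D2:**
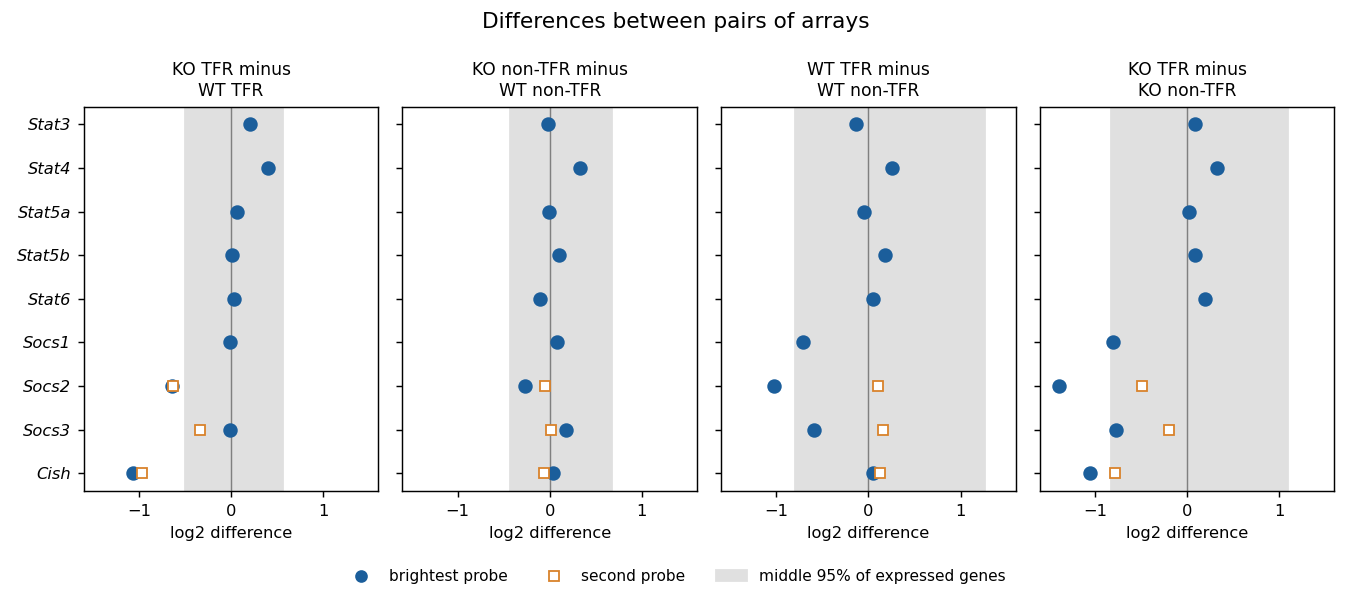
Log2 difference (x axis) of each STAT and SOCS family gene (y axis) between the 4 pairs of arrays, with KO minus WT in the left panels and TFR minus non-TFR in the right panels. Circles are brightest probes, open squares second probes, and the grey band holds the middle 95% of expressed genes. Cish and Socs2 lie left of the band in KO TFR minus WT TFR, and all 5 STAT genes lie inside it in each panel.

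In non-TFR cells, where the same question was asked outside the follicular gate, none of the 9 genes was 0.5 apart between KO and WT, against 7.13% of expressed genes. The largest difference was that of Stat4, and Socs2 followed with -0.27. Cish differed by 0.03 on its brighter and -0.06 on its second probe. The members' median was 0.034 and that of expressed genes 0.030.

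The genotype difference in TFR cells minus that in non-TFR cells was -1.10 for Cish, rank 42 of 11090 from the lowest, and -0.90 on its second probe. It was -0.37 and -0.59 on the probes of Socs2. Of the 9 genes, Cish was the only 1 past 0.5 in this contrast, against 9.82% of expressed genes, and it was also past 1, against 0.929%. Among the 7 members other than Cish and Socs2 it ran between -0.18 for Socs3 and 0.22 for Stat3, and it was -0.35 on the second Socs3 probe. With 1 array in each group this interaction could not be tested. The cell cycle list had a median of -1.03 in the same contrast, with its genes higher in KO than in WT non-TFR cells (median 1.03), and the part of this in the members' values was not tested.

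**Figure D3:**
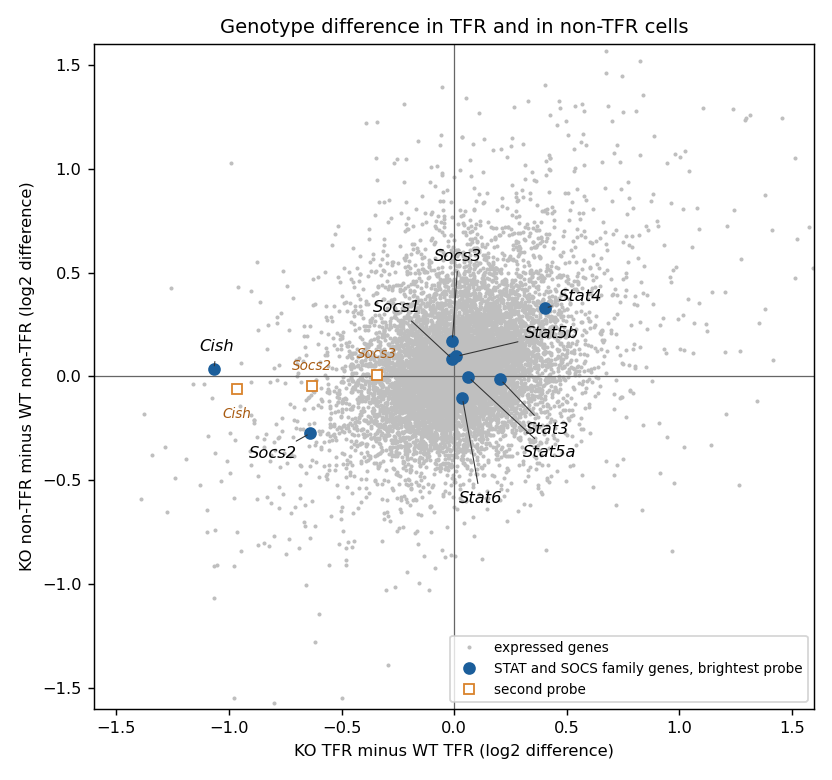
Log2 difference between KO and WT in TFR cells (x axis) and in non-TFR cells (y axis) for expressed genes (grey dots), the brightest probe of the STAT and SOCS family genes (filled circles) and their second probes (open squares). Axes end at 1.6, which leaves 13 genes outside. Cish lies at -1.07 on the x axis and near 0 on the y axis, and Stat4 is above 0 on both.

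The comparisons of TFR with non-TFR cells ask how the populations differ within a genotype. In WT mice, Socs1, Socs2 and Socs3 were lower in TFR than in non-TFR cells on their brightest probes, by -0.71 (1.63-fold lower), -1.02 (2.03-fold lower) and -0.59 (1.51-fold lower). These were 3 of the 9 genes at least 0.5 lower, against 8.07% of expressed genes, and 0 were at least 0.5 higher, against 12.7%. Socs2 was the only 1 of the 9 that was 2-fold lower, against 1.36% of expressed genes. Cish differed by 0.05 and the STAT genes by -0.13 to 0.26. The second probes of Socs2 and Socs3 ran the other way, at 0.10 and 0.16. With the mean of both probes, the difference was -0.46 for Socs2 and -0.22 for Socs3, so that Socs1 alone stayed past 0.5. As deposited, Socs3 was at -0.498, just short of the limit, and Socs2 was at -0.93, which left 2 genes at least 0.5 lower and 0 that were 2-fold lower. The members' median was -0.05 and that of expressed genes 0.02, and the members' median was 0.07 without quantile normalization. The cell cycle list was higher in TFR cells by a median of 3.15, with 11 of 11 genes at least 2-fold apart, and its part in the lower Socs values was not tested.

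In KO mice, the same 3 genes were lower in TFR than in non-TFR cells, and Cish as well. The differences were -0.80 (1.74-fold lower) for Socs1, -1.39 (2.62-fold lower) for Socs2, -0.77 (1.71-fold lower) for Socs3 and -1.05 (2.08-fold lower) for Cish. These were 4 of the 9 genes at least 0.5 lower, against 8.68% of expressed genes, 0 were at least 0.5 higher, against 11.2%, and 2 of them were 2-fold lower, against 1.37%. As deposited, Cish was at -0.97, which left 1 gene 2-fold lower. With the mean of both probes Socs2 was at -0.94, Cish at -0.92 and Socs3 at -0.48, which left 0 genes 2-fold lower and 3 at least 0.5 lower. Socs2 ranked 45 and Cish 130 of 11090 from the lowest. The second probes gave -0.49 for Socs2, -0.19 for Socs3 and -0.78 for Cish. The KO TFR array also enters the comparison with WT TFR cells, so the Cish values of these comparisons rest on the same low array. No STAT gene reached 0.5, with Stat4 at 0.33 and Stat6 at 0.19, and the cell cycle list was higher in TFR cells by a median of 2.13.

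Without replicates, neighbours in the order of the levels cannot be set against a spread, and the orders are given as they stand. Socs1 ran from KO non-TFR through WT non-TFR and WT TFR down to KO TFR, with the TFR arrays 0.0087 apart. Socs2 ran from WT non-TFR through KO non-TFR and WT TFR down to KO TFR. Socs3 followed the order of Socs1 on its brighter probe, and its second probe ran from WT TFR through KO non-TFR and WT non-TFR down to KO TFR. On both probes of Cish and of Socs2, KO TFR was the lowest array under quantile normalization, as deposited, with cyclic loess and with centring on the 75th percentile. The same held for Socs1 and the second Socs3 probe, whereas on the brighter Socs3 probe the TFR arrays were level as deposited and WT TFR was lowest with cyclic loess. Among the STAT genes KO TFR was the highest array for Stat4, Stat5a and Stat6 under all 4 scalings, by under 0.1 against the next array for Stat5a and Stat6. For Stat3 and Stat5b the highest array changed with the scaling.

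The expressed genes whose profile over the 4 arrays came closest to a member were found for the 3 members with the widest range, by the Euclidean distance between profiles centred on their own mean. For Cish these were Slc22a2 (distance 0.160), Scml4 (0.215) and Mndal (0.217). Mndal, an interferon-inducible gene, had levels of 9.35 in KO TFR, 10.18 in WT TFR, 10.46 in KO non-TFR and 10.33 in WT non-TFR cells. For Socs2 they were Qser1 (0.095), Sdc4 (0.121) and Ppp1r3f (0.122), and for Socs1 they were Sp6 (0.040), Ptbp2 (0.073) and Cutc (0.074). With 4 points per profile many genes can be this close.

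The rest of the pathway was read from lists drawn up from general knowledge, but with earlier results of these data known. Their counts and medians are therefore descriptions and not independent checks. Of the other STAT and SOCS genes measured (Stat2, Socs4, Socs5, Socs6 and Socs7), 0 of 5 were 0.5 apart in any of the 4 comparisons. Of expressed genes, 2.43% were lower and 3.43% higher by that much in KO against WT TFR cells, and 7.13% were apart in non-TFR cells. In TFR against non-TFR cells 8.07% were lower and 12.7% higher in WT mice, and 8.68% and 11.2% in KO mice. With 5 genes a count of 0 therefore says little. The largest genotype difference was 0.34 for Socs4 in TFR cells. Of the JAK kinases measured (Jak1, Jak2 and Tyk2), Jak2 was 0.40 higher in KO than in WT TFR cells and 0.61 higher in KO TFR than in KO non-TFR cells. Its levels were 10.51 in KO TFR, 10.11 in WT TFR, 9.89 in KO non-TFR and 9.76 in WT non-TFR cells. Of 11 other attenuators, 10 were higher and 1 lower in KO than in WT TFR cells, where 53.8% of expressed genes were higher. Their median was 0.16, against 0.02 over expressed genes. Of the 11, 0 were 0.5 apart, against 2.43% of expressed genes lower and 3.43% higher. Pias2 (0.46) and Pias3 (0.32) were the highest, and the gene of the JAK phosphatase Ptpn2 (-0.43) was the lower 1.

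Upstream of the STATs, 19 of 20 listed cytokine receptor genes were measured, and 2 were at least 0.5 lower (2.43% of expressed genes) and 1 at least 0.5 higher (3.43%) in KO than in WT TFR cells. Il2ra, the high-affinity chain of the IL-2 receptor, had levels of 11.00 in KO TFR, 11.67 in WT TFR, 12.24 in KO non-TFR and 12.17 in WT non-TFR cells, a genotype difference of -0.67 in TFR and 0.07 in non-TFR cells. Ifngr1, a chain of the interferon-gamma receptor, had 9.26 in KO TFR, 10.03 in WT TFR, 10.62 in KO non-TFR and 10.82 in WT non-TFR cells. Both were therefore lowest on the array where Cish was low, but unlike Cish they were also lower in WT TFR than in WT non-TFR cells, by -0.49 and -0.79. Il23r, which signals through STAT3 and STAT4, was higher in KO cells of both populations. The IL-2 receptor beta chain gene Il2rb, in contrast, lay between 12.73 and 12.98 on all arrays. Il2 itself was below the expression limit on all 4, and the cytokine list had a median of -0.07 between KO and WT TFR cells, with 3 of 15 at least 0.5 higher and 2 at least 0.5 lower. Of these 15 genes 6 were expressed, and Il6, 1 of the 3 higher ones, was not.

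Downstream, 14 of 14 genes reported as induced by IL-2 and STAT5 in T cells were measured. In KO against WT TFR cells 11 were lower and 3 higher, with a median of -0.21, whereas 53.8% of expressed genes were higher. At the 0.5 limit 3 were lower (Gzmb, Il2ra and the targeted gene Prdm1 itself), against 2.43% of expressed genes, and 0 were higher, against 3.43%. Gzmb was at 4.55 in KO TFR cells, below the expression limit, and at 8.54 in WT TFR cells. In non-TFR cells the same list had a median of -0.11, with 10 lower and 4 higher, whereas 55.7% of expressed genes were higher. There 1 gene (Gzmb) was at least 0.5 lower, against 1.74% of expressed genes. The other lower genes in TFR cells ran from Foxp3 (-0.49), Myc (-0.47) and Tnfrsf9 (-0.45), just short of 0.5, through Ccnd3 (-0.27), Ccnd2 (-0.15) and Pim1 (-0.14) to Tnfrsf4 (-0.08) and Il2rb (-0.03). Lta (0.18), Osm (0.13) and Bcl2 (0.02) were the 3 higher ones.

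Of 14 genes reported as induced by STAT3, 13 were measured, and 5 were at least 0.5 higher (3.43% of expressed genes) and 1 at least 0.5 lower (2.43%) in KO than in WT TFR cells, with a median of 0.27. The median was as large between KO and WT non-TFR cells, at 0.30, with 10 of 13 higher, 4 of them by at least 0.5, and 1 at least 0.5 lower. Of expressed genes, 55.7% were higher in that comparison, 7.13% were at least 0.5 apart in either direction and 1.74% were at least 0.5 lower. In TFR cells Il23r and the helper cytokine Il21 (1.41) were the highest and Il10 (-2.33) the lowest. Il23r had levels of 8.04 in KO TFR, 5.49 in WT TFR, 7.43 in KO non-TFR and 4.47 in WT non-TFR cells, so that both WT values lay below the expression limit and the size of its difference is uncertain. The STAT4 list had a median of 0.02 in TFR and 0.38 in non-TFR cells, where Il18r1 (0.79) and Tbx21 (0.73) were higher in KO. Over its 5 expressed genes the median was -0.14 in TFR and 0.48 in non-TFR cells. The STAT6 list had a median of -0.22 in TFR cells, where 4 of 5 genes were lower and Il4 was 1.51 higher, whereas 53.8% of expressed genes were higher. Of the genes measured, 11 of 13 in the STAT3 list and 4 of 5 in the STAT6 list were expressed. Their medians in TFR cells were 0.33 and -0.25. These lists share genes with each other and with the receptor and cytokine lists, such as Il2ra, Il10 and Il23r, so that their counts are not separate.

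**Figure D4:**
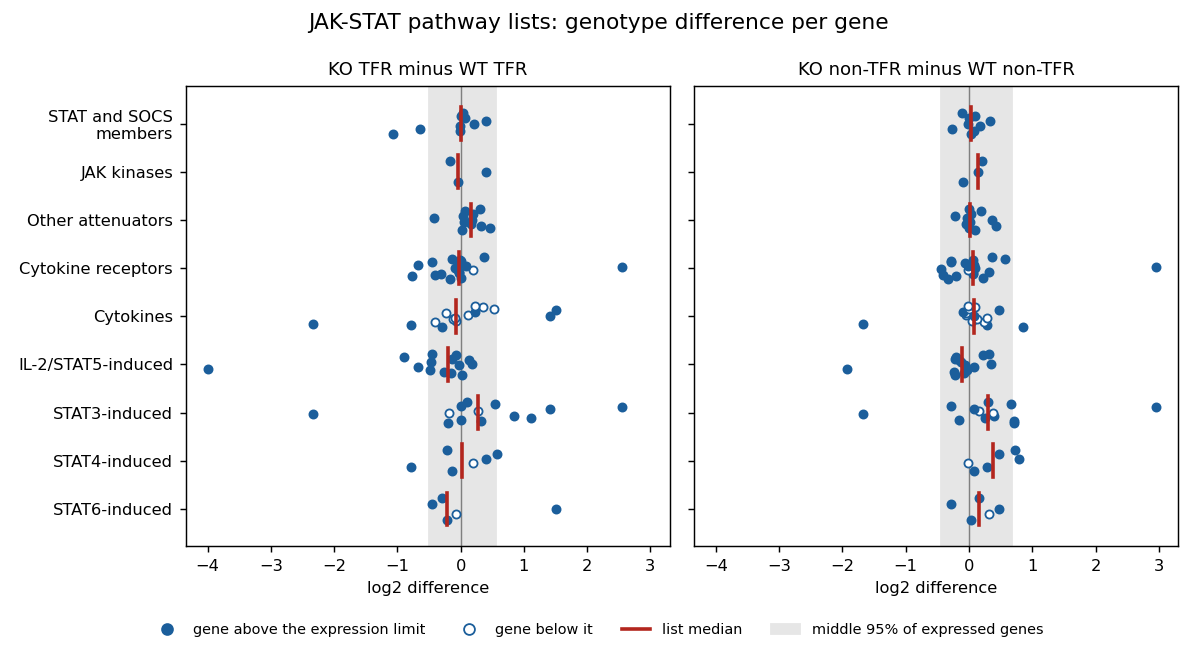
Log2 difference between KO and WT (x axis) in TFR cells (left) and non-TFR cells (right) for the genes of each pathway list (y axis). Each circle is 1 gene, open where its mean lay below the expression limit, red bars are list medians, and the grey band holds the middle 95% of expressed genes. The medians lie near 0 for the STAT and SOCS members in both panels, at -0.21 (left) and -0.11 (right) for the IL-2 and STAT5 list, and at 0.27 (left) and 0.30 (right) for the STAT3 list.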

How the data were processed

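The values deposited by the authors are summarized signals, taken to be on a log2 scale from their range of 2.23 to 13.8 because no source used here states the log base, on which each fold depends. There is 1 per array for each transcript cluster (probe). Per the submitters' processing notes MAS5 was used, with no role or version stated, and how background was corrected is not given in the sources used here. There were no detection calls. The array medians spanned 0.105, over the limit of 0.1, so all 41345 probes were quantile normalized with limma 3.58.1 in R 4.3.3, which also removes any real difference common to most genes. Probes were named from the platform annotation, by which 23521 had 1 gene, 1814 several and 16010 none. For genes with several probes the brightest over the 4 arrays was used. Sequences are those of RefSeq on GRCm38.p6. Probe positions and the build behind them were not used.

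Each comparison is the log2 difference of 2 arrays assigned to groups by title, with 1 array per group and therefore no test. The difference and counting steps were run on simulated data with known changes and a chosen noise. That checks the code only and says nothing of the spread between real arrays. The named genes were every member, up to 3 genes with the largest difference per list and comparison, control genes, and the 3 genes of ordinary symbol closest to each of the 3 members with the widest range. Stat2, Socs5, Socs6, Socs7, Il2rb, Il2, Bcl2, Pim1, Ccnd2, Cd79a, Blnk, Ms4a1, Pax5, Fcrla, Tnfrsf4, Tnfrsf9, Myc, Ccnd3, Lta and Osm, where outside that rule, were named after their values were seen. The members and lists were chosen with earlier results of these data known. Alternatives were the deposited values, cyclic loess, centring on the 75th percentile, the mean of all probes, other filters on dim genes and a floor on low values. Listed genes without a probe of their own were not analysed here.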

Additional observations from a re-analysis of the deposited data

Results flagged for a closer look

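For 6 of the 9 genes the genotype difference in TFR cells had the opposite sign to that in non-TFR cells, as it had for 40.3% of expressed genes. This needs only 1 array on each side, was not tested, and arises readily where differences are close to 0. The TFR value minus the non-TFR value was -1.10 for Cish, 0.22 for Stat3, 0.067 for Stat5a, 0.14 for Stat6, -0.093 for Socs1 and -0.18 for Socs3. For Cish, Stat3 and Stat5a the TFR minus non-TFR difference also changed sign between the genotypes, and KO minus WT was -1.10, 0.22 and 0.067 in that order, the same numbers by construction. Among these only the Cish value exceeded 0.5. The second Cish probe had genotype differences of -0.97 in TFR and -0.06 in non-TFR cells, and the mean of both probes -1.02 and -0.014. The sign change of the Cish genotype difference was therefore present on the brighter probe alone. The TFR minus non-TFR difference changed sign on the second probe too, at 0.13 in WT and -0.78 in KO mice.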

How the results depend on the processing

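All alternatives were planned, and a value without a test was taken as moved when it shifted by 0.1 or more on the log2 scale. No paired analysis was possible because each group has 1 array. The filters and the floor cannot change a member's own difference. Under the 4 settings that can (3 scalings and the mean of all probes), 165 of 180 member values moved by less than that, and none of the differences of 0.5 or more changed sign. Cish in KO against WT TFR cells ran from -1.10 to -1.02 over them. The second probes taken alone were not among these settings. In WT TFR against WT non-TFR cells these probes had 0.10 for Socs2 and 0.16 for Socs3, opposite in sign to the brighter probes (-1.02 and -0.59). Without quantile normalization the members' median was 0.071 in WT TFR against WT non-TFR cells and 0.14 in KO TFR against KO non-TFR cells, while all genes then had medians of 0.11 and 0.12. The 2-fold genes of the KO comparison then split into 443 higher and 103 lower, against 336 and 152. With the mean of all probes, 1 member was 0.5 apart in WT TFR against WT non-TFR cells. With no filter on dim genes, 756 genes were 2-fold apart in KO TFR against KO non-TFR cells, against 488. The filter at the 75th percentile kept 7 members, without Socs2 and Socs3. It left 1 member 0.5 apart in KO TFR against WT TFR, 1 in WT TFR against WT non-TFR and 2 in KO TFR against KO non-TFR cells, a median of 0.067 for the difference between the genotype differences, and 22, 39, 215 and 157 genes 2-fold apart in KO TFR against WT TFR, KO non-TFR against WT non-TFR, WT TFR against WT non-TFR and KO TFR against KO non-TFR cells, of which 8 higher and 14 lower in the first, 38 and 1 in the second and 84 and 73 in the last. Without replicates or detection calls, small differences and those of dim probes such as the second of Socs2 cannot be set against an error.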
